A study of Homo sapiens with 6 samples.

Results

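The Krüppel-like factors described here are 10 zinc finger transcription factor genes expressed in myeloid cells, KLF2, KLF3, KLF4, KLF6, KLF7, KLF9, KLF10, KLF11, KLF13 and KLF16. They were found by symbol among the 58735 genes of the deposited count table, and all 10 were present and had enough reads to be tested. The cells were MOLM-13, which the labels give as acute myeloid leukaemia cells of WT genotype and which is an established human line of monocytic type. One group of 3 cultures was treated with 3.5 nM 8p, which the labels call a RET/CDK8 inhibitor with an IC50 of 7 nM, and the other group of 3 cultures was the untreated control. Both groups were incubated for 48 hours in the same medium, and the sources used here do not say whether the control received a solvent. The design text calls 8p a synthetic molecule and the replicates independent biological ones, and all come from a single cell line.

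Krüppel-like factors bind CACCC boxes and related GC-rich elements through zinc fingers at the C-terminal end of the protein. The rest of the protein decides the outcome. KLF2, KLF4, KLF6 and KLF7 mostly activate transcription with acetyltransferases such as EP300 and CREBBP, KLF3 recruits the corepressor CtBP, and KLF9, KLF10, KLF11, KLF13 and KLF16 carry a motif that recruits the SIN3 corepressor with its histone deacetylases. In the myeloid lineage KLF4 promotes monocyte differentiation, and KLF2 restrains the inflammatory activation of monocytes.

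Total counts ran from 14972069 to 16210861 in the 8p libraries and from 18834611 to 23485628 in the control libraries, so the 8p libraries were the shallower ones. Mitochondrially encoded genes took 6.42% to 10.004% of counts with 8p and 1.64% to 1.91% in control. On the second principal component of log2 CPM, the read counts scaled to a common library size, 8p replicate 2 scored 35.0 while 8p replicates 1 and 3 scored −16.7 and −18.6, so member values without that library are given below. The myeloid label was checked with 10 marker genes, whose summed level was 4774 to 5360 CPM with 8p and 1813 to 1943 CPM in control. Most of that sum was LYZ, which encodes lysozyme, at 3732 CPM with 8p and 1040 CPM in control. Of the 9 markers tested 6 were higher and 2 lower with 8p. Over all 13822 genes tested, 37.9% were higher and 36.9% lower by the same rule, which is given below. The lower markers were MPO (−0.64), a granule enzyme, and CD33 (−0.50), a surface receptor, and ITGAM was not called. CD68, a macrophage marker, was not tested and had 0 counts over the 8p libraries and 11 over the control libraries. Of the endothelial markers CDH5, KDR and EMCN had no count in any library, nor had HBA1 and HBB among the erythroid markers or EPCAM and KRT5 among the epithelial ones. The summed level was 0.266 to 0.479 CPM with 8p and 0 to 0.126 CPM in control for the 5 endothelial markers, and 1.798 to 2.73 CPM with 8p and 3.63 to 5.11 CPM in control for the 7 lymphoid markers. The erythroid sum, carried by EPOR, was 12.1 to 13.3 CPM with 8p and 24.2 to 26.9 CPM in control. The epithelial sum, carried by the family gene KLF5, was 11.7 to 13.6 CPM with 8p and 5.93 to 8.92 CPM in control. The part of these markers in the results on Krüppel-like factors was not tested.

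The comparison asked which of the 10 genes differed in transcript level after exposure to 8p. KLF2 and KLF13 rose most, to 4.65-fold and 3.33-fold of their control level. KLF4, KLF6, KLF7, KLF9 and KLF10 rose by less than 2-fold, KLF11 and KLF16 fell, and KLF3 did not pass the test. A gene was called at an adjusted p under 0.05 by edgeR's quasi-likelihood test, with Benjamini-Hochberg adjustment over all genes tested. By that rule 9 of the 10 members were called, 7 higher and 2 lower with 8p. Calls were common in these data: 74.7% of the 13822 genes tested were called, 37.9% higher and 36.9% lower, so the count of members stands on a high background. For 9 members the 8p and control libraries formed separate ranges, against 77.0% of all genes tested. A call with at least a 2-fold change was reached by 2 members, KLF2 and KLF13, against 38.4% of all genes tested. The median size of the log2 fold change was 0.75 over the members and 0.75 over all genes tested. The median with its sign was 0.70 over the members and 0.03 over all genes. In bulk RNA, fewer cells that express a gene and less of its RNA in each cell cannot be told apart.

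**Figure D1:**
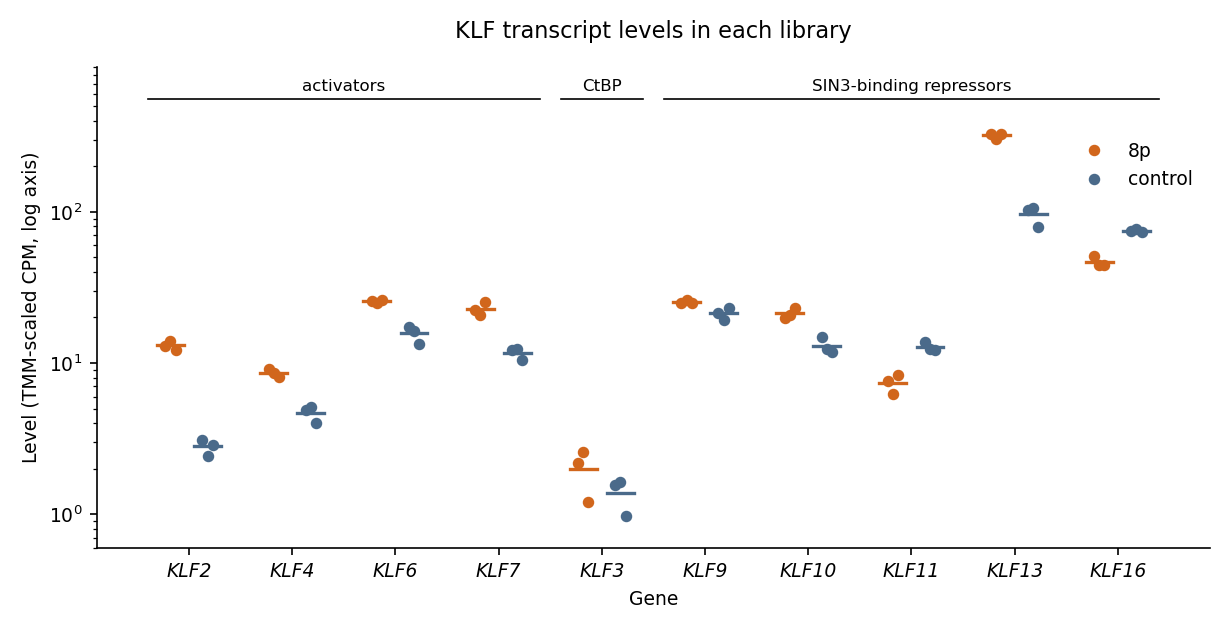
Level of each of the 10 genes in each library, in TMM-scaled CPM on a log axis, with 8p left of control; points are libraries and horizontal lines are means of 3 libraries. The groups separate for every gene but KLF3, with 8p below control only for KLF11 and KLF16.

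Among the activators all 4 rose. KLF2, which holds monocytes and T cells in a quiescent state, showed the largest change of the 10 genes. Its reads numbered 195, 235 and 182 in 8p replicates 1 to 3, against 74, 52 and 53 in control replicates 1 to 3. Scaled for library size, that was 12.98, 14.1 and 12.3 CPM with 8p and 3.12, 2.43 and 2.88 CPM in control. The lowest 8p library stood well above the highest control library. The log2 fold change was 2.22 (SE 0.17, adjusted p = 8.04e-09, edgeR), and it was 2.13 without 8p replicate 2. KLF2 (ENSG00000127528) lies on GRCh38 chromosome 19, 16324817 to 16327874, plus strand, with a summed exon length of 2018 bases in the deposited table.

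The 250 bases before the KLF2 start site are shown because KLF2 led the rise and because its promoter is known to be bound by MEF2 factors, which act below the kinase MAPK7 (ERK5). The sequence is from RefSeq (GRCh38.p14, chr19:16324576-16324825, plus strand), and capitals mark the match to CTA and TAG with any 4 bases between them, a MEF2-like pattern that reads the same on both strands.
KLF2: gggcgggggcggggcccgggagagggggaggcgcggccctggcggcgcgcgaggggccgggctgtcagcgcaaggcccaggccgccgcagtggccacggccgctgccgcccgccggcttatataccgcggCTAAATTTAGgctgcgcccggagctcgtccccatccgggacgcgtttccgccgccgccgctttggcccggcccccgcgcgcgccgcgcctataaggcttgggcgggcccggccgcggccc
The match spans bases −120 to −111 from the start site. The pattern occurred in 2.36% of the 35116 promoter windows of the same length in the table. Windows were listed for 8 members, 12 windows in all, and the pattern occurred in 2 of them, that of KLF2 and 1 of the 2 windows of KLF11, a gene that fell. A match of these letters is a description and not evidence of binding.

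KLF4, which drives monocyte differentiation and is the nearest relative of KLF2 in function, had 9.12, 8.57 and 8.10 CPM with 8p and 4.89, 5.09 and 4.03 CPM in control. The groups did not overlap, and the log2 fold change was 0.87 (SE 0.17, adjusted p = 2.22e-04, edgeR). KLF4 lies on chromosome 9, 107484852 to 107490482, minus strand. Because CPM depend on the scaling, KLF2 was also set against KLF4 within each library, where scaling cancels. The ratio of KLF2 to KLF4 reads was 1.42, 1.64 and 1.52 in the 8p libraries and 0.638, 0.477 and 0.716 in the control libraries. Every 8p ratio was above every control ratio. The size of such a ratio also depends on the lengths of the genes (3659 bases for KLF4), so only its difference between the groups is read here.

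KLF6, an early-response factor that promotes inflammatory gene expression in macrophages, had 25.8, 25.1 and 25.97 CPM with 8p and 17.2, 16.4 and 13.4 CPM in control. Its log2 fold change was 0.70 (SE 0.11, adjusted p = 4.52e-05, edgeR). KLF6 is on chromosome 10, 3775996 to 3785281, minus strand. KLF7, the closest sequence relative of KLF6 and best known from neuronal development in the mouse, had 22.3, 20.7 and 25.3 CPM with 8p and 12.3, 12.4 and 10.5 CPM in control. It rose by 0.95 on the log2 scale (SE 0.12, adjusted p = 4.55e-06, edgeR). For both genes every 8p library was above every control library. KLF7 spans chromosome 2, 207074137 to 207167267, minus strand, and an intronic transcript inside it, KLF7-IT1, held 24 counts against 1805 of KLF7. Per length, the 4 activators together made up 20.0% ± 0.723 of the summed level of the 10 genes with 8p and 12.4% ± 0.528 in control (SD, n = 3 each).

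The CtBP-binding repressor KLF3, which in the mouse restrains a set of genes in erythroid cells, was the least abundant member. It had 33, 43 and 18 reads in the 8p libraries and 37, 35 and 18 reads in the control libraries. In CPM that was 2.20, 2.58 and 1.21 with 8p and 1.56, 1.64 and 0.979 in control, and the groups overlapped. The log2 fold change was 0.51 with an SE of 0.36 (adjusted p = 0.203, edgeR), so KLF3 was not called. Without 8p replicate 2 the value was 0.25. KLF3 is on chromosome 4, 38664196 to 38701042, plus strand. The antisense gene KLF3-AS1 shares exon positions with it and held 4 counts over the 6 libraries, against 184 of KLF3.

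**Figure D2:**
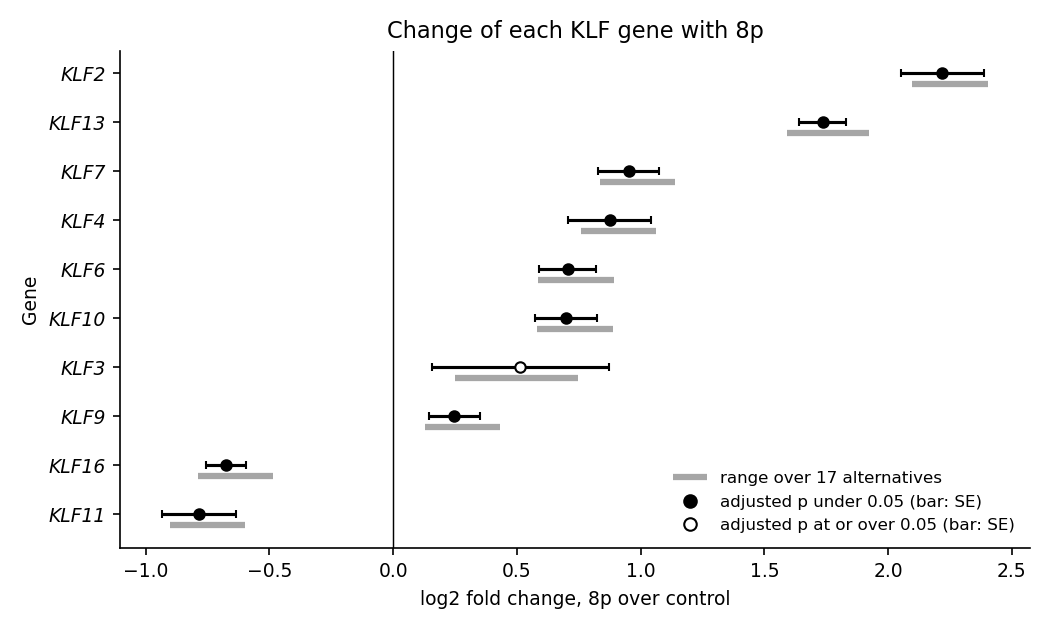
Log2 fold change of each gene, 8p over control; points with bars are the edgeR estimate ± SE, filled where the adjusted p was under 0.05, and grey bars give the range over 17 alternative settings. Every grey bar stays on the side of 0 of its estimate, from 2.22 for KLF2 down to −0.79 for KLF11.

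The SIN3-binding repressors moved in both directions, with KLF9, KLF10 and KLF13 higher and KLF11 and KLF16 lower. KLF13, which activates the chemokine gene CCL5 in T lymphocytes, had more reads than any other member, at a summed exon length of 9409 bases. It had 4945, 5080 and 4862 reads in the 8p libraries and 2447, 2271 and 1451 in the control libraries, or 329, 304 and 328 CPM with 8p and 103, 106 and 79.0 CPM in control. The 8p libraries lay close together, and control replicate 3 was the low one of its group. The log2 fold change was 1.74 (SE 0.10, adjusted p = 1.84e-10, edgeR), and it was 1.59 without control replicate 3. KLF13 (ENSG00000169926) lies on chromosome 15, 31326855 to 31435665, plus strand.

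KLF16, a repressor first described at dopamine receptor genes in the mouse, went the other way. It had 51.2, 44.6 and 44.3 CPM with 8p and 74.1, 76.6 and 73.0 CPM in control, with no overlap. It fell by 0.67 on the log2 scale (SE 0.08, adjusted p = 1.89e-06, edgeR). KLF16 (ENSG00000129911) is on chromosome 19, 1852399 to 1863568, minus strand. The antisense gene AC012615.4 within its span held 14 counts against 6910 of KLF16.

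KLF13 and KLF16 are shown together because they led the pool of transcripts and moved in opposite directions. Both sequences are the 250 bases before the RefSeq start site (GRCh38.p14), KLF13 from chr15:31326585-31326834 on the plus strand and KLF16 from chr19:1863580-1863829 on the minus strand. Capitals mark GGGCGG, the core of the GC box bound by SP and Krüppel-like factors, on either strand.
KLF13: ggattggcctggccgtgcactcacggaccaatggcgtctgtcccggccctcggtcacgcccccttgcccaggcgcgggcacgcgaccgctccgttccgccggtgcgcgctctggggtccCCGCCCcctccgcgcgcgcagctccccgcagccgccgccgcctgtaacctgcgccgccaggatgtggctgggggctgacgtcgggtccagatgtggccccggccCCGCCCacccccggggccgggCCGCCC
KLF16: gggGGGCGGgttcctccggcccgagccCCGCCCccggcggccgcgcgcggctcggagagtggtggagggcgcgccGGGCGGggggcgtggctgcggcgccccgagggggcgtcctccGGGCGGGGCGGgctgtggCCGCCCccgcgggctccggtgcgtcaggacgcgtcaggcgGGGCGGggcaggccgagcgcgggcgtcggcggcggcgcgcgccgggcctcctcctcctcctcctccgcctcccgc
The KLF13 window held 3 matches and the KLF16 window 7, of which the pair at −133 and −128 share a base. GGGCGG occurred in 42.6% of all windows, and 95% of windows held 4 matches or fewer. CACCC occurred in 54.7% of all windows and in 4 of the 12 windows of the members, once in that of KLF13 at −22 to −18, where its first base is also the last of a GGGCGG match, and not in that of KLF16. The CArG box, the site of serum response factor, occurred in 1.16% of all windows and in 1 of 4 windows of KLF7. The base composition of the members' windows ran from 32.4% G and C for KLF9 to 86.4% for KLF16, with a median of 58% over all windows.

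KLF10 and KLF11, a pair named for their induction by TGF-beta, also diverged. KLF10 had 19.7, 20.9 and 23.1 CPM with 8p and 14.97, 12.3 and 11.9 CPM in control, and rose by 0.70 on the log2 scale (SE 0.13, adjusted p = 1.25e-04, edgeR). KLF11 had 7.59, 6.23 and 8.37 CPM with 8p and 13.7, 12.3 and 12.1 CPM in control. It fell by 0.79 on the log2 scale (SE 0.15, adjusted p = 2.08e-04, edgeR), the largest fall of the 10 genes. Neither gene's groups overlapped. KLF10 is on chromosome 8, 102648779 to 102655902, minus strand, and KLF11 on chromosome 2, 10042849 to 10054836, plus strand.

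KLF9, a direct target of glucocorticoid and thyroid hormone receptors, changed least among the called genes. It had 24.8, 25.9 and 25.0 CPM with 8p and 21.5, 19.3 and 23.2 CPM in control. Its log2 fold change was 0.25 (SE 0.10, adjusted p = 0.0416, edgeR), and the call was not stable. The adjusted p was 0.0861, 0.128 and 0.0955 without 8p replicates 1, 2 and 3, and 0.124 and 0.249 without control replicates 1 and 2, where the log2 fold change was between 0.15 and 0.24. It was 0.0606 with the replicate number as a block and 0.246 with DESeq2, in a range from 0.00131 to 0.402 over its 17 alternatives. KLF9 is on chromosome 9, 70384597 to 70414624, minus strand.

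The order of the levels was taken after division by the exon length in the deposited table, as CPM per kilobase (kb). With 8p the order of the levels was KLF13 (34.1 ± 1.48), KLF16 (15.8 ± 1.32), KLF2 (6.50 ± 0.451), KLF10 (5.31 ± 0.436), KLF9 (4.88 ± 0.121), KLF6 (4.18 ± 0.0750), KLF7 (2.46 ± 0.253), KLF4 (2.35 ± 0.140), KLF11 (1.61 ± 0.235) and KLF3 (0.317 ± 0.112 CPM per kb, SD, n = 3). The replicate ranges of KLF10 and KLF9, and of KLF7 and KLF4, overlapped. In control the order of the levels was KLF16 (25.2 ± 0.637), KLF13 (10.2 ± 1.58), KLF9 (4.12 ± 0.381), KLF10 (3.26 ± 0.418), KLF11 (2.77 ± 0.188), KLF6 (2.55 ± 0.324), KLF2 (1.39 ± 0.174), KLF4 (1.28 ± 0.155), KLF7 (1.27 ± 0.115) and KLF3 (0.221 ± 0.0570 CPM per kb, SD, n = 3). There the ranges of neighbours overlapped from KLF9 to KLF6 and from KLF2 to KLF7. KLF2 held the third place with 8p and the seventh in control, and KLF13 and KLF16 exchanged the first place.

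The summed level of the 10 genes was 77.5 ± 2.24 CPM per kb with 8p and 52.3 ± 2.72 CPM per kb in control (SD, n = 3 each). Without KLF13 the sum was 43.4 ± 1.02 with 8p and 42.1 ± 1.22 in control. In that sum the lower levels of KLF16 and KLF11 offset most of the higher levels of the other genes. The net difference in the sum of all 10 was therefore carried by KLF13. KLF13 made up 44.0% ± 0.880 of the pool with 8p and 19.5% ± 2.11 in control. KLF16 made up 20.4% ± 1.28 with 8p and 48.3% ± 1.97 in control, and KLF2 made up 8.40% ± 0.782 with 8p and 2.67% ± 0.365 in control.

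**Figure D3:**
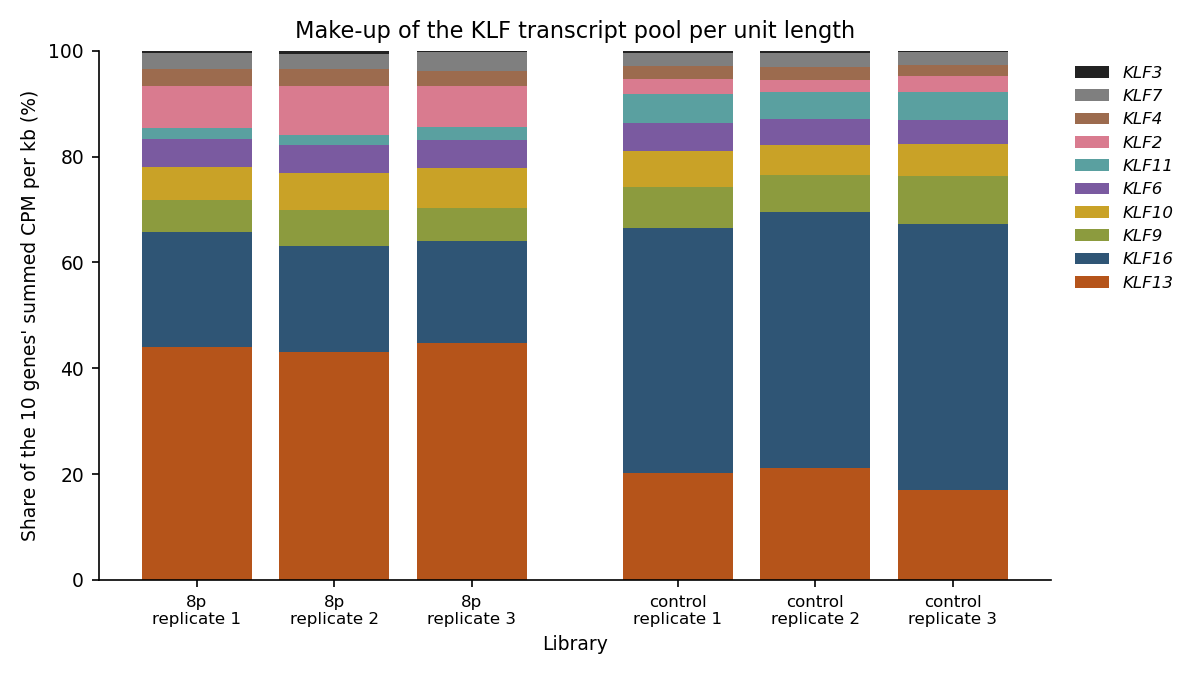
Share of each gene in the summed level of the 10 genes, in percent of CPM per kb, as a stacked bar for each library, with the 3 libraries given 8p on the left and the 3 control libraries on the right. KLF13, at the base, takes 43.1% to 44.8% of each 8p bar and 17.1% to 21.1% of each control bar, and KLF16 shows the opposite.

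Ratios of reads within a library do not depend on how libraries are scaled, and they were computed for 3 pairs of related genes. The ratio of KLF13 to KLF16 reads was 6.42, 6.82 and 7.40 in the 8p libraries and 1.39, 1.38 and 1.08 in the control libraries. The ratio of KLF10 to KLF11 reads was 2.60, 3.36 and 2.77 in the 8p libraries and 1.09, 1.00 and 0.978 in the control libraries. For all 3 pairs every 8p library was above every control library. For KLF13 to KLF16 and KLF10 to KLF11 this had to follow, because 1 gene rose and the other fell without overlap. The ratio was higher with 8p by 1.34 (KLF2 to KLF4), 2.43 (KLF13 to KLF16) and 1.497 (KLF10 to KLF11) on the log2 scale. A two-sided exact permutation test gave p = 0.1 for each pair, the smallest that 3 against 3 libraries allow, and 0.1 after Benjamini-Hochberg adjustment over the 3 pairs. Groups that do not overlap always give this p, so it adds nothing to the ranges.

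**Figure D4:**
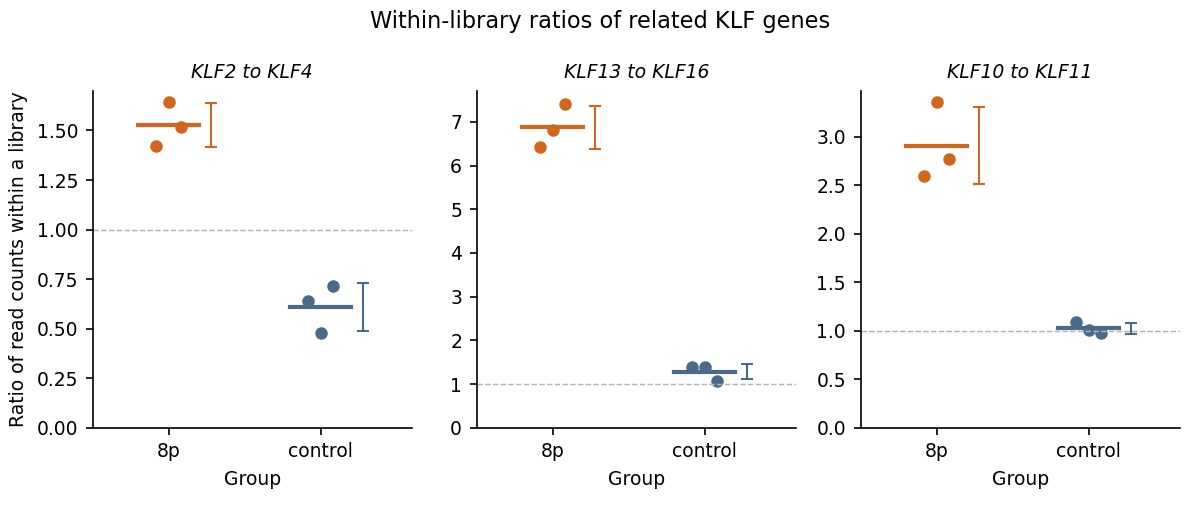
Ratio of read counts of 2 related genes in each library, with 8p left of control in each panel; points are libraries, thick lines are means, bars to the right show ± SD (n = 3) and the dashed line marks equal counts, which are not equal levels because the genes differ in length. KLF2 to KLF4 averages 1.53 with 8p and 0.610 in control, KLF13 to KLF16 averages 6.88 and 1.29, and KLF10 to KLF11 averages 2.91 and 1.02.

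Of the 17 other genes of the KLF and SP family, 5 had enough reads to be tested, and 3 of these rose and none fell (median log2 fold change 0.34). Over all genes tested, 37.9% were called higher and 36.9% lower, which is the background for this and the following lists. KLF5, an activator typical of epithelial cells, had 10.2 ± 0.690 CPM with 8p and 6.50 ± 1.23 CPM in control (log2 fold change 0.66). SP1 and SP3, which bind GC boxes in most cell types, rose by 0.52 and 0.34. SP2 and SP4 had log2 fold changes of −0.19 and −0.36 (adjusted p = 0.189 and 0.0849, edgeR), with ranges over their alternatives of 0.0114 to 0.967 and 0.0218 to 0.399. SP2 was called without 8p replicate 1 (0.0432) or control replicate 3 (0.0202), and SP4 without 8p replicate 2 (0.0269), and both were called lower without a filter on low counts (0.0114 and 0.0218). No change in this list reached 2-fold. KLF8, KLF14, KLF17, KLF18 and SP5 had no count in any library.

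All 10 cofactor genes of the family were tested, and 4 rose and 5 fell (median log2 fold change −0.16), where 74.7% of all genes tested were called. The 4 that rose included all 3 acetyltransferase genes of the list. CREBBP had 141 ± 3.27 CPM with 8p and 69.0 ± 11.3 CPM in control (log2 fold change 1.03), EP300 rose by 0.50 and KAT2B by 0.64. Without control replicate 3 the value of EP300 was 0.30 (adjusted p = 0.00490, edgeR, in a range from 1.93e-05 to 0.0157 over its alternatives). The call of KAT2B was lost with DESeq2 (adjusted p = 0.0754) and without control replicate 3 (0.0504), the lowest of its alternatives being 0.00200. The corepressor side was mixed: SIN3A fell by 0.41 on the log2 scale, whereas its paralog SIN3B rose by 0.77. The deacetylase gene HDAC2 had 151 ± 9.78 CPM with 8p and 364 ± 24.8 CPM in control and fell by 1.27, HDAC1 fell by 0.52, and SAP30, a subunit of the SIN3 complex, fell by 0.88. CTBP2, a partner of KLF3, fell by 0.84, while its paralog CTBP1, at 0.08, was not called (adjusted p = 0.245, edgeR). With upper quartile scaling CTBP1 was called higher (adjusted p = 0.00121, the lowest of its alternatives, the highest being 0.833), and without a filter on low counts its sign turned (−0.031).

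KLF2 and KLF4 are induced by a kinase cascade from MAP3K2 and MAP3K3 through MAP2K5 to MAPK7 and MEF2, which class IIa deacetylases oppose. Of the 11 genes of that list, all were called, 9 higher and 2 lower, with a median of 0.58. Over all genes tested 74.7% were called. The higher genes include kinases of the cascade and also the opposing deacetylase genes, so the count and median do not describe the inducing cascade alone. MAP3K2, the first kinase of the cascade, had 181 ± 4.73 CPM with 8p and 38.7 ± 4.01 CPM in control, a log2 fold change of 2.22. MAP3K3 rose by 0.91, MAP2K5 by 0.36 and MAPK7 by 0.46. MEF2A rose by 0.27, a call lost without 8p replicate 3 (adjusted p = 0.0843), control replicate 2 (0.0514) or control replicate 3 (0.0578), with DESeq2 (0.131) and without a filter (0.279), in a range from 3.02e-04 to 0.279 over its alternatives. MEF2C and MEF2D fell. MEF2C had 143 ± 6.81 CPM with 8p and 261 ± 11.8 CPM in control, and MEF2D had a log2 fold change of −0.27. The call of MEF2D did not hold when libraries were scaled by upper quartiles (adjusted p = 0.343, the highest of 17 alternatives; the lowest was 9.50e-07). The deacetylase genes HDAC4, HDAC5 and HDAC7 rose by 1.55, 1.35 and 0.58. FOXO1, which activates KLF2 in T cells, had 2.46 ± 0.725 CPM with 8p and 0.309 ± 0.0993 CPM in control and rose by 2.95 from few reads, 116 with 8p and 20 in control.

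**Figure D5:**
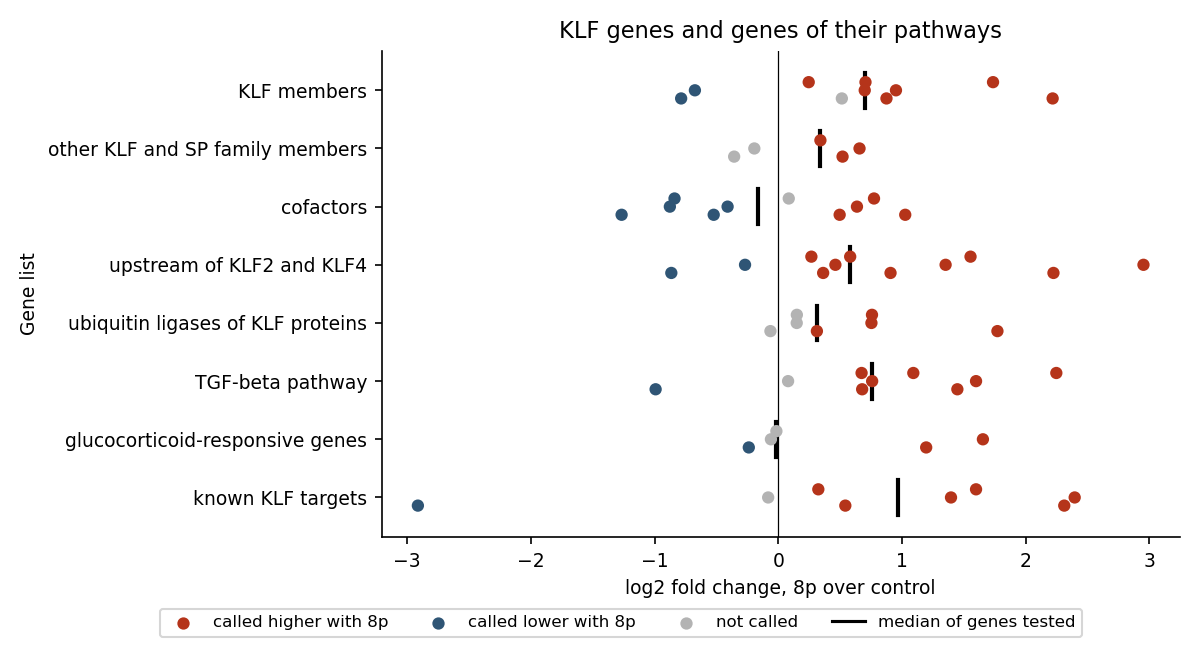
Log2 fold change, 8p over control, of each tested gene in the 10 Krüppel-like factors and in 7 lists of related genes, one point a gene; red points were called higher, blue points lower and grey points not called, and black lines are medians of the genes tested. The medians run from −0.16 for the cofactors to 0.97 for known targets, with 0.70 for the 10 genes.

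Ubiquitin ligases that mark Krüppel-like factors for degradation were higher or not called. Of 7 tested, 4 rose and none fell (median 0.31), led by FBXO32 at 1.77, an F-box protein described to act on KLF4, SMURF1 at 0.76 and SIAH1 at 0.75. FBXW7 rose by 0.31, a call lost without control replicate 1 (adjusted p = 0.0519) or control replicate 2 (0.0584), with DESeq2 (0.116) and without a filter (0.220), in a range from 4.96e-04 to 0.220 over its alternatives. In the TGF-beta list, whose signal induces KLF10 and KLF11, 7 of 9 tested genes rose and 1 fell (median 0.76). Over all genes tested, 37.9% rose and 36.9% fell by the same rule. SKIL, an inhibitor of SMAD signalling, had 80.4 ± 4.83 CPM with 8p and 16.9 ± 0.651 CPM in control. SMAD7, an inhibitory SMAD that KLF10 is known to repress, had 19.5 ± 0.772 CPM with 8p and 6.42 ± 0.851 CPM in control, and SMAD3 rose by 1.45. The gene that fell was that of the ligand, TGFB1, at 64.3 ± 5.81 CPM with 8p and 128 ± 2.58 CPM in control. Among 5 tested glucocorticoid-responsive genes, which include textbook companions of KLF9, 2 rose and 1 fell (median −0.02). TSC22D3 rose by 1.65 and DUSP1 by 1.196, while the receptor gene NR3C1 fell by 0.24. That call too did not hold under upper quartile factors (adjusted p = 0.552; other settings reached down to 3.75e-04).

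Of 11 genes known as targets of Krüppel-like factors in other cells, 8 were tested, and 6 rose and 1 fell (median 0.97). Over all genes tested 74.7% were called. CDKN1A was the target not called (log2 fold change −0.08, adjusted p = 0.305, edgeR). SMAD7 is counted among the 6 and also in the TGF-beta list. THBD, which encodes the anticoagulant receptor thrombomodulin and is activated by KLF2 and KLF4 in endothelium, had 90.6 ± 5.16 CPM with 8p and 34.4 ± 1.72 CPM in control, a log2 fold change of 1.40. LGALS3, the galectin-3 gene, which KLF3 represses in the mouse, had 34.5 ± 2.90 CPM with 8p and 6.53 ± 0.899 CPM in control (2.40), although KLF3 itself did not pass the test. CD14, a target of KLF4 in monocytes, rose by 2.31. CCL5 was the gene that fell, with 5.54 ± 0.309 CPM with 8p and 41.8 ± 1.03 CPM in control (−2.91), opposite in direction to its T cell activator KLF13. The list mixes activated and repressed targets, so its count and median have no single predicted direction. Its genes have many other regulators, and whether any change followed a Krüppel-like factor was not tested. S1PR1 had no count in any library, and NOS3 had too few reads to be tested.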

How the data were processed

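RNA was sequenced from 6 cultures of MOLM-13. Per the submitters' processing notes the authors used build hg38, and the notes list edgeR 3.22.5, DESeq2 1.20.0, HISAT2 2.0.5 and featureCounts 1.5.0-p3. The deposited values are raw read counts per gene, whole numbers with a different total in each library. All 58735 identifiers and positions matched GENCODE release 29. The sources used here do not give the strand setting, and the labels name poly(A) capture or ribosomal RNA removal without saying which. Genes overlapping a member held at most 2.17% of its counts, and 8 pseudogenes of members held 1 count together.

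In R 4.3.3, edgeR 4.0.16 was fitted over all genes with TMM factors, filterByExpr and group as the only term, and p-values were adjusted by Benjamini-Hochberg. The SE is the log2 fold change divided by the square root of F. CPM are counts scaled by TMM library sizes. Without spike-ins a fold change is relative to the other transcripts, which matters here because most genes were called. The pipeline was tested on simulated counts in which a small part of the genes changed, equally in both directions. That setting differs from these data, so the test does not settle the scaling here.

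All 10 members are named. From the other lists, the up to 3 called genes with the largest change are named, and others where a small count needs them. The members, lists and tests were chosen with earlier results of these data known. Alternatives were DESeq2 1.42.0, limma-voom (limma 3.58.1), 4 other scalings or gene sets, 2 other filters, a replicate block, each library left out, a stricter threshold and a minimum fold. Promoters are RefSeq windows (GRCh38.p14).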

Additional observations from a re-analysis of the deposited data

How the results depend on the processing

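All 10 members kept their direction under all 17 alternatives. The stricter threshold and the minimum fold are among these and use the main fit, so they could not change a direction. The members called numbered 8 to 9 with a library left out (6 to 7 higher, 2 lower) and 8 with the replicate number as a block, when 10090 genes were called in all; leaving out a library gave 9871 to 10640. With at least a 2-fold change required, 5304 genes and 2 members were called, both higher and 0 lower, and KLF4 (0.87), KLF6 (0.70), KLF7 (0.95), KLF9 (0.25), KLF10 (0.70), KLF11 (−0.79) and KLF16 (−0.67) were no longer called, by the construction of that rule. KLF9 was also lost at an adjusted p under 0.01 (0.25), with RLE size factors (0.23), without a filter on low counts (0.13), with DESeq2 (0.18), with the replicate block (0.25) and without any library but control replicate 3 (0.15 to 0.28 over the 6 libraries); the cause was not tested. The block changed no other call of a gene given above. CTBP1 changed sign without the filter (−0.031), when MEF2A, FBXW7 and ENG were not called either. At an adjusted p under 0.01, KAT2B, MEF2A, FBXW7 and NR3C1 were not called. Upper quartile scaling moved the median of all genes by 0.19 on the log2 scale and turned no member. Without 8p replicate 2, the log2 fold changes not given above were 0.84 (KLF4), 0.69 (KLF6), 0.99 (KLF7) and 0.19 (KLF9). Those of KLF10, KLF11, KLF13 and KLF16 were 0.68, −0.70, 1.74 and −0.67. Without control replicate 3, the values of KLF2, KLF3, KLF4, KLF6 and KLF7 were 2.21, 0.30, 0.76, 0.58 and 0.86. Those of KLF9, KLF10, KLF11, KLF13 and KLF16 were then 0.28, 0.61, −0.84, 1.59 and −0.71. With 1 library left out, the log2 difference of the KLF2 to KLF4 ratio was 1.17 to 1.47. It was 2.31 to 2.49 for KLF13 to KLF16 and 1.39 to 1.57 for KLF10 to KLF11. Same-numbered libraries of the groups did not deviate together (correlations −0.0071, −0.0181 and −0.0432), so the numbers were not taken as pairs. KLF3 had the fewest reads of the members, and the part of depth in its missing call was not tested.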

Other observations

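Over the 6 libraries, the genes whose centred log2 CPM lay nearest to that of KLF2, the member with the largest rise, were MAP3K2, SYCP2L and SLC25A29, at root mean square distances of 0.065, 0.071 and 0.074 among 11499 protein-coding genes. MAP3K2, a kinase, is also in the list of genes upstream of KLF2 and KLF4. SYCP2L, a relative of a meiotic chromosome axis protein, had 75.6 ± 4.59 CPM with 8p and 16.6 ± 0.885 CPM in control, and SLC25A29, a mitochondrial carrier of basic amino acids, had 62.3 ± 1.23 CPM with 8p and 14.2 ± 1.19 CPM in control (SD, n = 3 each). The nearest member to KLF2 was KLF13, at 0.30. For KLF11, the member with the largest fall, the nearest were ZNF480, SRFBP1 and ACTR3B, at 0.029, 0.048 and 0.056, and the nearest member was KLF16, at 0.15. With 2 groups of 3 libraries, this distance mostly compares the size of the group difference.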
